A study of Mus musculus with 6 samples.

Results

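The genes described here are the histone genes of the 4 mouse histone clusters, Hist1 to Hist4, taken as every row of the gene list whose symbol begins with Hist1h, Hist2h, Hist3h or Hist4h. There were 67 such genes among 32286 measured rows, 6 of the H1 family, 18 of H2A, 18 of H2B, 12 of H3 and 13 of H4. They were followed in digits in a dish (DID) cultures, in which distal forelimb mesenchyme of pooled wild-type CD-1 mouse embryos at E11.5 was dissociated, seeded at high density and grown until Day 2, Day 7 or Day 10. Each day had replicates A and B, from independent cultures, and every library was made with 10x 3′ chemistry from dissociated cells. All groups shared the genotype and the starting tissue, and no treatment separated them, so the days are the only groups compared and n was 2 per day.

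Histone proteins package DNA into nucleosomes: H2A, H2B, H3 and H4 form the core particle, and H1 binds the DNA between particles. A cell that copies its genome needs new histones at once, and the clustered genes are known for being expressed mainly in S phase. Their classical mRNAs end in a short stem-loop in place of a poly(A) tail. A few clustered genes are also known to give polyadenylated transcripts, which do not depend on DNA replication. The libraries were primed with oligo-dT, so a classical histone mRNA enters them only through a poly(A) tail or an internal stretch of A, and a level here is a count of captured ends, not a measure of all histone mRNA. Levels of different genes were not set per length for the same reason, since one end is counted per molecule, and they were compared between genes only with that limit.

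The sequence at the 3′ end is shown first because it bears on which of these genes a poly(A)-primed library can count. In the GENCODE annotation of GRCm38, 54 members lie in Hist1 (chr13:21715763-23934851), 10 in Hist2 (chr3:96219865-96270132), 2 in Hist3 (chr11:58948920-58956830) and 1 in Hist4 (chr6:136801553-136804415). A 16-base stem-loop, with paired arms of 6 bases and a loop of 4, was found after the stop codon in 45 of the 67 members. Of the others, 15 are annotated with only 0 to 2 bases after the stop, too few to hold a stem-loop. The count thus does not show that those genes lack one. Hist1h2bc, an H2B gene described below, is another member without one. Its annotated transcript has 2 exons and 742 bases after the stop. Anywhere in a transcript, the stem-loop was found in 0.571% of 21901 protein-coding genes. The forms carried by 2 or more members are written 5′ to 3′ with the loop in capitals.
25 members of H1, H2A, H2B and H3: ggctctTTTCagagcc
7 members, all of H4: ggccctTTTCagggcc
6 members, among them Hist1h3c, Hist1h3e and Hist1h3f: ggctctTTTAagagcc
Hist1h4i and Hist2h4: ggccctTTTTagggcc
Hist1h4b and Hist1h4j: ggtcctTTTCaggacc

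Hist1h2ap, an H2A gene and the member with the highest level, carries a run of A directly in front of its stem-loop, at chr13:21833029-21833057 on the minus strand. Hist1h2ao, another H2A gene, whose transcript end shares most of its sequence with Hist1h2ap, carries the same letters at chr13:21810885-21810913 on the plus strand. The run is in capitals.
Hist1h2ap: gAAAAAAAAAAAAggctcttttcagagcc
Hist1h2ao: gAAAAAAAAAAAAggctcttttcagagcc
Runs of at least 10 A were found in 4 members (Hist1h2ap, Hist1h2ao, Hist1h2ac and Hist1h2be) and in 15.8% of protein-coding genes. The counts of this pair were very unequal, with a mean of 796 UMIs per 1000000 for Hist1h2ap and 0.168 for Hist1h2ao. A read that matches several genes equally is not counted by the authors' counter. Over the last 500 bases of the transcript, 92.4% of the 90-base windows of Hist1h2ap were also found in another gene, and 92.8% of those of Hist1h2ao, so the share of each copy in these counts is uncertain. In all, 28 members shared over 50% of their windows with another gene, and 18 shared none.

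Other members have an annotated transcript that runs past the stem-loop. Hist1h1c, a linker histone, ends 840 bases after it at chr13:23740338-23740367 on the plus strand, and Hist2h3c1, an H3 gene, ends 1167 bases after it at chr3:96248480-96248509 on the plus strand. The last 30 bases of both are shown because each holds a poly(A) signal, which is in capitals.
Hist1h1c: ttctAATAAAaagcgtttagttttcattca
Hist2h3c1: taatcccAATAAAaatttaacacactgcta
A signal of this kind (AATAAA or ATTAAA) lay in the last 40 bases of 16 members.

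The 6 libraries kept 9448 to 16486 cells and 178022112 to 260245417 UMIs after the authors' limits were applied. Day 2 replicate B was the shallowest by cell, with a median of 3871 UMIs and 41.4% of its cells under 3000 UMIs, against 18587 UMIs and 6.84% in Day 2 replicate A. Pairs of libraries shared 36 to 120 cell barcodes. Leaving out all cells under 3000 UMIs kept every count of members called between days in whole cultures within 1.5 times of the values given here.

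The summed level of the clustered histone genes was highest on Day 2 and lowest on Day 10. Together they had 5481 and 6703 UMIs per 1000000 UMIs of the library (CPM) in Day 2 replicates A and B, then 1539 and 1434 on Day 7, and 515 and 496 on Day 10. Replicates of a day lay far closer to each other than to any library of another day. No test was made on these sums, because a score over chosen members gets none. Summed counts cannot tell fewer cells with histone mRNA from less of it per cell, and the comparisons within cell classes below separate these in part.

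The families did not fall alike. H1 genes summed to 1882 and 2068 CPM on Day 2, 432 and 394 on Day 7, and 190 and 220 on Day 10. H2A genes went from 2403 and 3054 to 743 and 670 and then to 118 and 58.2. H3 genes went from 448 and 549 to 74.7 and 72.7 and then to 22.7 and 25.2. H2B was the exception, with 316 and 378 on Day 2, 139 and 141 on Day 7, and 146 and 151 on Day 10. Its share of all member UMIs rose from 5.77% and 5.64% on Day 2 to 28.3% and 30.4% on Day 10. The captured histone ends of Day 10 were thus a different mixture, not a diluted form of the Day 2 mixture.

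**Figure D1:**
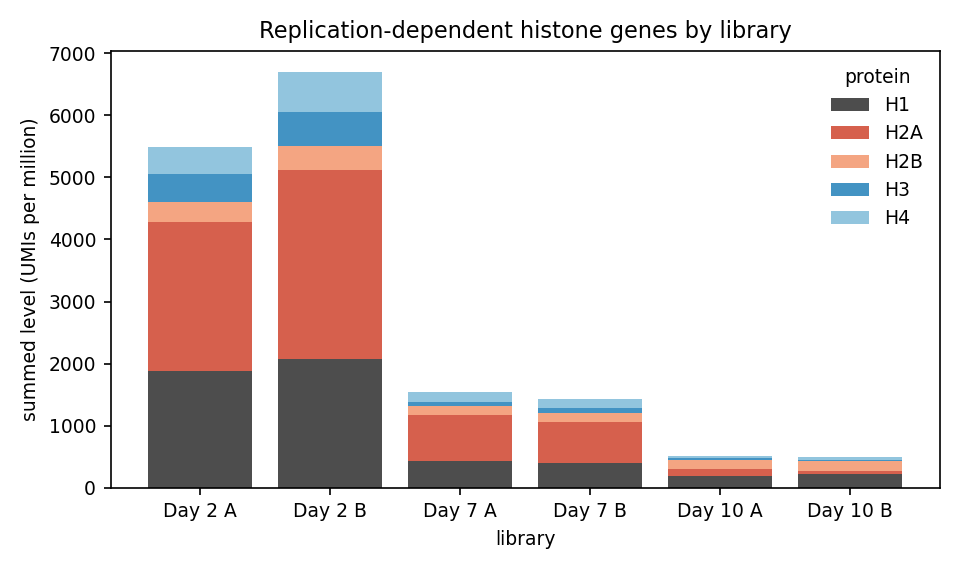
Summed level of the 67 clustered histone genes in each of the 6 libraries, in CPM of the kept cells, with the bar stacked by histone family from 0. Day 2 replicates stand at 5481 and 6703, Day 7 replicates at 1539 and 1434, and Day 10 replicates at 515 and 496, where H2B takes the largest share of the stack it has in any library.

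A single gene led the Day 2 and Day 7 libraries. Hist1h2ap had 1583 and 2071 CPM on Day 2, 554 and 501 on Day 7, and 57.8 and 9.29 on Day 10. It held 28.9% to 36.0% of all member UMIs on Day 2 and Day 7, and 11.2% and 1.87% on Day 10. At Day 10 its replicates differed 6.22-fold, on 15046 and 2168 UMIs, which is the widest gap between replicates of any member with at least 10 UMIs in every library.

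Hist1h1b and Hist1h1e, H1 genes that encode linker histones, ranked 2 and 3 by mean level. Hist1h1b had 955 and 1031 CPM on Day 2, 181 and 163 on Day 7, and 66.3 and 82.0 on Day 10. Hist1h1e had 612 and 681, then 149 and 136, then 26.0 and 31.5, although 99.0% of its end windows were shared with the overlapping Hist1h2be, so its counts hold only reads that were assigned to it alone. Both genes fell at each step with no overlap between days. Hist1h1d and Hist1h1a followed the same course at lower levels, from 95.8 and 119 to 7.63 and 9.30 and from 93.6 and 93.6 to 5.21 and 6.07 CPM between Day 2 and Day 10.

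Hist1h1c, the other abundant linker histone, departed from this course. It had 126 and 143 CPM on Day 2, 63.4 and 61.3 on Day 7, and 85.3 and 90.7 on Day 10. It was lowest on Day 7 and lay between the other days on Day 10, with no overlap between days. It ranked 7th or 8th among members on Day 2 and 2nd in both Day 10 libraries.

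Hist1h2bc, an H2B gene, moved against nearly all others. It had 46.4 and 50.9 CPM on Day 2, 78.9 and 78.9 on Day 7, and 122 and 126 on Day 10. It rose from rank 15 and 18 on Day 2 to the highest member in both Day 10 libraries, where it held 23.8% and 25.4% of member UMIs. The H2B share on Day 10 was thus mostly this one gene.

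The abundant core histone genes of the other families fell steeply. Hist1h2ae, an H2A gene, had 498 and 548 CPM on Day 2, 92.5 and 77.4 on Day 7, and 20.1 and 12.5 on Day 10. Hist1h4d, an H4 gene, had 241 and 387, then 98.7 and 102, then 12.2 and 15.2. Hist1h3c, an H3 gene, had 195 and 237, then 21.4 and 21.02, then 4.13 and 5.31, the lowest Day 10 levels of the 3. The remaining members of the 16 most abundant (Hist1h4h, Hist1h3e, Hist1h2ak, Hist2h2ac, Hist2h2bb and Hist2h2aa1) had 32.6 to 172 CPM on Day 2 and 1.73 to 7.01 on Day 10.

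**Figure D2:**
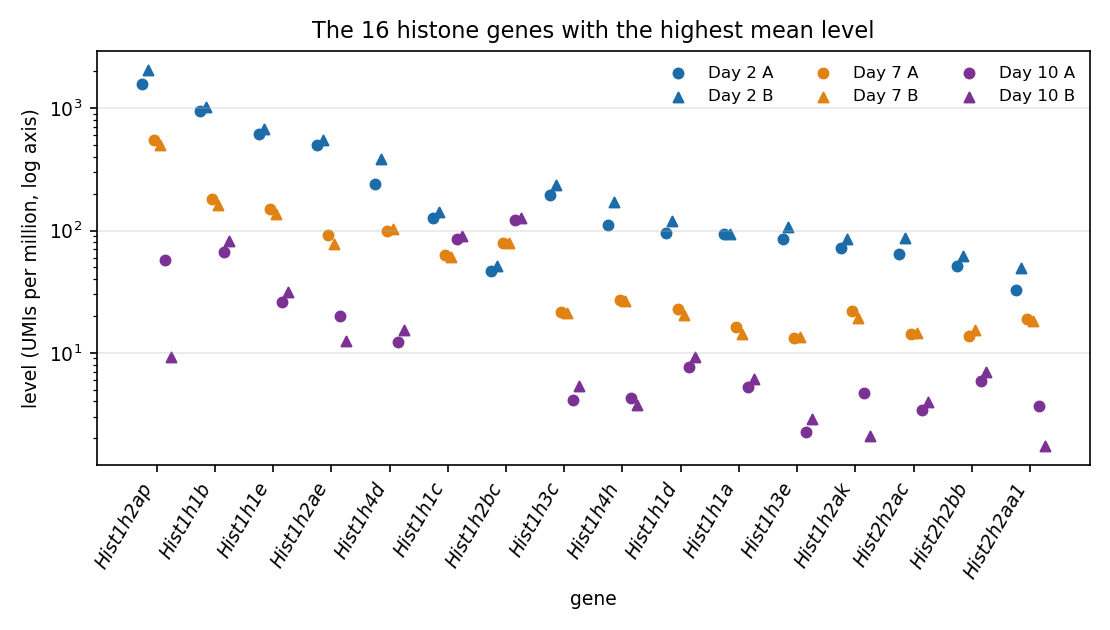
CPM of the 16 members with the highest mean level, one point per library, on a log axis, with the days in different colours. Points of Day 2 lie above those of Day 10 for 15 of the 16 genes, Hist1h2ap spreads widest on Day 10 (57.8 and 9.29), and Hist1h2bc runs the other way (46.4 and 50.9 on Day 2, 122 and 126 on Day 10).

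To ask which members differed between days beyond the spread of the replicates, UMIs were summed per library and all genes were fitted together with edgeR's quasi-likelihood test, with Benjamini-Hochberg adjustment over every gene tested. Of the 67 members, 62 passed the filter on low counts. The other 5 (Hist1h2aa, Hist2h2aa2, Hist1h2ba, Hist1h4m and Hist1h2bq) had 0 to 23 UMIs over all 6 libraries. Fold changes are log2 values on TMM-scaled counts, and the comparisons of days share libraries.

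Between Day 2 and Day 7, 54 of the 62 tested members fell and 4 rose, with a median log2 change of -2.04. Of all 18987 genes tested, 34.6% fell and 35.7% rose, and their median was 0.014. By family, 6 of 6 H1, 13 of 16 H2A, 14 of 16 H2B, 10 of 12 H3 and 11 of 12 H4 genes fell. The falls of Hist1h3c (-3.07 ± 0.12 SE) and Hist1h2ad, an H2A gene (-2.95 ± 0.19), were among the largest. The genes that rose were Hist2h3c2 (1.65), Hist1h2bc (0.98 ± 0.05, adjusted p = 5.37e-07), Hist2h3c1 (0.96) and Hist2h4 (0.48). The last of these, an H4 gene, was no longer called on library totals without TMM factors (0.20).

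Hist1h2ap was not called between Day 2 and Day 7 (-1.51 ± 0.61, adjusted p = 0.0536), although its replicates did not overlap. The fit shares one estimate of spread per gene over the days, and without Day 10 replicate A the adjusted p was 1.93e-05 at nearly the same change (-1.50). Without Day 10 replicate B it was 1.76e-05, on library totals 0.0262 and without the filter on low counts 0.00524. The other members that were not called were Hist3h2a, Hist2h2be and Hist1h2ac.

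Between Day 7 and Day 10 a further 51 of 62 fell and 6 rose, with a median of -1.45, while 25.9% of all genes fell and 26.3% rose. Hist1h2ap (-3.99 ± 0.68) and Hist1h3b, an H3 gene (-3.92 ± 0.18), were among the members that fell furthest. The value of Hist1h2ap rested on its unequal Day 10 libraries, with -5.86 without Day 10 replicate A and -3.20 without Day 10 replicate B. The H2A family had the lowest median, -2.35, against -1.30 for H2B. Those that rose were Hist2h3c2 (1.25), Hist2h3c1 (1.10), Hist1h2bc (0.63), Hist3h2a (0.57), Hist1h4i (0.49) and Hist1h1c (0.47). Hist1h4i and Hist1h1c had both fallen before, so their course turned between the steps.

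Over the whole course from Day 2 to Day 10, 54 of 62 members fell and 5 rose, with a median of -3.66. Of all genes tested, 38.2% fell and 39% rose. Large falls were those of Hist1h2ad (-6.18 ± 0.24), Hist1h3b (-6.07 ± 0.18), Hist1h2ai (-5.95 ± 0.32) and Hist1h2ap (-5.50). Without Day 10 replicate A that of Hist1h2ai was -6.81 and that of Hist1h2ap -7.35, and without Day 10 replicate B that of Hist1h2ap was -4.70. Medians by family were -3.44 for H1, -4.14 for H2A, -3.50 for H2B, -3.42 for H3 and -3.47 for H4. Hist1h2bc, on which the H2B sum rests on Day 10, thus moved against the median of its family.

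The members that rose over the course were mostly low. Hist2h3c1 and Hist2h3c2, H3 genes of the Hist2 cluster, had 0.866 and 1.005 and 0.404 and 0.404 CPM on Day 2, and 3.47 and 3.02 and 2.37 and 2.66 on Day 10 (log2 changes of 2.06 and 2.90). Hist3h2a, an H2A gene, had 15.1 and 14.8 on Day 2, 11.7 and 12.7 on Day 7, and 19.0 and 17.9 on Day 10 (0.57 between Day 2 and Day 10). Hist2h4 had 3.27 and 4.12 on Day 2 and 4.45 and 4.54 on Day 10 (0.55). None of these overlapped between Day 2 and Day 10, as was the case for 88.5% of all genes. All windows at the end of Hist2h3c1 were shared with another gene, so its counts are uncertain, while Hist3h2a and Hist2h4 shared none.

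Genes of the same process were read beside the members. Top2a, a topoisomerase of dividing cells, fell by 1.83 ± 0.10 between Day 2 and Day 10, and Mki67, a proliferation marker, fell by 1.79 ± 0.08. Of 21 S-phase genes, 21 fell with a median of -1.05, and of 23 G2/M genes, 23 fell with a median of -1.34. The members' median of -3.66 was below all of these. Between Day 7 and Day 10 the S-phase genes had a median of -0.10 and 10 of 21 fell, where the members had a median of -1.45 and 51 of 62 fell.

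The genes of histone mRNA processing and histone supply had smaller median changes than the members between Day 2 and Day 10. Of 19 tested genes of histone mRNA synthesis and 3′ processing, 16 fell and 3 rose (median -0.67). Slbp, whose protein binds the stem-loop, fell by 0.84 ± 0.05, Npat, a coactivator of histone genes, by 0.84 ± 0.06, and Casp8ap2, needed for histone gene expression, by 1.46 ± 0.06, whereas Lsm10, a protein of the U7 particle that cuts histone mRNA, rose by 0.99 ± 0.06. All 22 chaperone genes fell (median -0.96), most of all Nasp, a carrier of H3 and H4 and of linker histones (-2.33 ± 0.05). Of 11 histone genes outside the clusters, 10 fell (median -1.08). The exception was H2afj, an H2A variant, with a rise of 0.54 ± 0.07. Among 7 inhibitors of cyclin-dependent kinases 4 rose and 3 fell, led by Cdkn2a, which encodes p16 and p19ARF (4.46 ± 0.19).

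To see the members against cell division, kept cells were divided by the UMIs of Top2a and Mki67 alone, which are no members. Cells with at least 1 UMI of each were 39.1% and 30.6% of cells in Day 2 replicates A and B, then 12.7% and 11.6% on Day 7, and 12.9% and 13.7% on Day 10. Median depth was 8062 and 9337 UMIs per cell on Day 7 against 24197 and 22128 on Day 10, and a deeper cell is more likely to show both UMIs. In cells thinned to 5000 UMIs the shares were 26.6% and 31.3% on Day 2, 10.2% and 9.14% on Day 7, and 7.80% and 9.11% on Day 10. The share was thus far lower on Day 7 than on Day 2 on both scales, while the order of Day 7 and Day 10 turned with the depth. In these cells the members summed to 9373 and 10558 CPM on Day 2, 5100 and 4911 on Day 7, and 1236 and 1003 on Day 10. In cells with neither UMI they summed to 1117 and 2061, then 479 and 464, then 361 and 367. The 2061 of Day 2 replicate B came with a median of 2766 UMIs in those cells, against 13750 in replicate A. Among cells of at least 5000 UMIs thinned to 5000, the values without either UMI were 1419 and 1726 on Day 2, closer to each other, and 373 and 387 on Day 10.

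The members were higher in cells with both UMIs nearly throughout. With the library as a block, 57 of 62 tested members were higher in cells with both UMIs than in cells with neither, 1 was lower and 4 were not called, with a median of 2.36. Of 17609 genes tested, 23.7% were higher and 28.2% were lower, and their median was -0.045. All 6 H1 genes, 14 of 16 H2A, 15 of 16 H2B, 10 of 12 H3 and 12 of 12 H4 genes were higher. Because the days differ so much in level, the 2 classes did not overlap over all libraries in 6 of 62 members (7.04% of all genes), and the comparison rests on the pairs within libraries.

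The largest differences were those of Hist1h1b (5.29 ± 0.54), Hist1h2af (5.22 ± 0.43, or 6.101 without Day 2 replicate B), Hist1h3b (4.93 ± 0.46), Hist1h3c (4.71 ± 0.37) and Hist1h2ap (4.53 ± 0.28), each higher in 6 of 6 libraries. Hist1h1b had 1594, 1543, 786, 761, 356 and 388 TMM-scaled CPM in cells with both UMIs, in the order Day 2 A, Day 2 B, Day 7 A, Day 7 B, Day 10 A and Day 10 B. In cells with neither it had 82.5, 204, 12.3, 11.3, 4.46 and 5.88. Even its lowest value with both UMIs was above its highest value with neither. Hist1h2ap had 2640, 3168, 2281, 2236, 285 and 39.3 with both UMIs and 136, 336, 72.0, 59.9, 8.97 and 1.90 with neither. Its change between Day 2 and Day 7 in cells with both UMIs was -0.37 ± 0.57 (adjusted p = 0.586).

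Not every member was called higher in cells with both UMIs over all days together. The comparison counts captured ends and does not test whether a gene depends on replication. Hist3h2a was lower in cells with both UMIs in 6 of 6 libraries (-0.42 ± 0.04, adjusted p = 0.000172). Hist1h2bc (-0.17 ± 0.23, adjusted p = 0.559), Hist2h3c1 (-0.16 ± 0.33, adjusted p = 0.712) and Hist2h3c2 (-0.28 ± 0.31, adjusted p = 0.475) were not called, and each was higher in 2 of 6 libraries. These 4 genes are among the 5 that rose over the course. The fifth, Hist2h4, was higher with both UMIs (0.84 ± 0.28, adjusted p = 0.0383) but in 4 of 6 libraries. The remaining uncalled gene was Hist1h2ao, the copy of Hist1h2ap.

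For Hist1h2bc and Hist1h1c the difference between the classes turned during culture. Hist1h2bc had 48.6, 51.9, 68.3, 74.3, 80.1 and 78.1 TMM-scaled CPM with both UMIs and 30.2, 32.8, 89.9, 86.3, 142 and 145 with neither. It was thus higher in cells with both UMIs on Day 2 and lower in them on Day 7 and Day 10. The log2 difference went from 0.67 on Day 2 to -0.31 on Day 7 and -0.86 on Day 10, and the change between Day 2 and Day 10 passed the test of the difference itself (-1.53, adjusted p = 8.00e-07). Hist1h1c had 158, 171, 107, 107, 81.1 and 80.3 with both UMIs and 67.6, 78.7, 55.2, 55.2, 92.5 and 96.8 with neither, and its difference went from 1.17 to 0.96 and -0.23 (change between Day 2 and Day 10 of -1.40, adjusted p = 4.65e-07). For Hist1h1c the difference over all days (0.64 ± 0.23, adjusted p = 0.0448) was lost when either Day 2 or either Day 7 library was left out, with adjusted p of 0.116 to 0.120.

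Of the 3 H3 genes of the Hist2 cluster, Hist2h3c1 and Hist2h3c2 took the same turn at low levels, while Hist2h3b had a positive difference on each day (2.27, 2.19 and 1.43). Hist2h3c1 had a log2 difference of 1.13 on Day 2, -0.26 on Day 7 and -1.03 on Day 10 (change between Day 2 and Day 10 of -2.16, adjusted p = 0.000389). Hist2h3c2 went from 0.95 to -0.13 and -1.15 (-2.10, adjusted p = 0.00101). Hist2h4 went from 1.78 to 0.96 and -0.13 (-1.90, adjusted p = 2.31e-05). Hist1h2bc, Hist2h3c1 and Hist2h3c2, which were not called over all days together, thus had a positive difference on Day 2 and a negative one on both later days.

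Tested directly, the signed difference between the classes (both over neither) moved up from Day 2 to Day 7 in 17 members and down in 8, while 13.5% of all genes moved up and 6.16% down. Hist1h1b went from 3.58 to 6.03, Hist1h1a from 2.69 to 4.71 and Hist1h1d from 2.11 to 3.58. Between Day 7 and Day 10 it moved up in 0 members and down in 16, against 1.05% and 2.37% of all genes. In that edgeR test 0 members moved up and 27 down at an unadjusted p under 0.05, as did 7.92% and 8.84% of all genes. Hist1h4h, an H4 gene, went from 2.43 to 0.46. Between Day 2 and Day 10 it moved up in 7 members and down in 16 (15.1% and 7.05% of all genes). These counts moved with single libraries: without Day 2 replicate A the first comparison had 33 that moved up, without Day 7 replicate B it had 9, and without either Day 2 replicate the second had 33 that moved down, while without any one of the Day 7 and Day 10 libraries it had 8 or 9. In cells thinned to 5000 UMIs the first comparison had 28 that moved up and 4 that moved down. The share of all genes called is not given for these refits. Their counts thus do not show how far the members stood apart from other genes.

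Members were also compared between days within each class. Among cells with both UMIs, 51 of 62 members fell between Day 2 and Day 7 (median -1.06, against 33.5% of all genes), 54 of 62 between Day 7 and Day 10 (median -1.79, against 20.9%) and 55 of 62 between Day 2 and Day 10 (median -2.91, against 37.8%). Those that rose numbered 3, 1 and 4, where 33.7%, 21.3% and 37.1% of all genes rose. Hist1h4h (-5.24 ± 0.16), Hist1h2ad (-5.17 ± 0.21, or -5.83 without Day 10 replicate A) and Hist1h3b (-4.77 ± 0.13) fell most between Day 2 and Day 10.

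In the same cells the S-phase and G2/M genes had no such course. These cells were chosen by Top2a and Mki67 UMIs, and all 23 G2/M genes were higher in them than in cells with neither. The part of that choice in the course of the G2/M genes was not tested. Between Day 2 and Day 10, 7 of 21 S-phase genes rose and 7 fell (median 0.07), and 6 of 23 G2/M genes rose and 8 fell (median -0.08). Of the 3′ processing genes, 13 of 19 fell and 2 rose (median -0.32). Slbp fell by 0.30 ± 0.05, Npat by 0.64 ± 0.06 and Casp8ap2 by 1.02 ± 0.06. Of the histone chaperones 18 of 22 fell (median -0.60), and of the histone genes outside the clusters 10 of 11 (median -0.64).

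The 4 members that rose in cells with both UMIs between Day 2 and Day 10 were Hist2h3c2 (1.54 ± 0.22), Hist2h3c1 (0.77 ± 0.22), Hist1h2bc (0.64 ± 0.06) and Hist3h2a (0.37 ± 0.09). The rise of Hist2h3c1 was not called without Day 2 replicate A (adjusted p = 0.0542) or without Day 10 replicate A (0.113). After thinning to 5000 UMIs, 1 member rose, and Hist1h2bc had 0.07 (adjusted p = 0.561). In cells matched on UMIs of S-phase genes and of Top2a and Mki67, Hist1h2bc had -0.29 (adjusted p = 0.311), so its rise depends on which cells are taken.

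Among cells with neither UMI, 61 members were tested. Free RNA can add UMIs to any droplet, and on Day 2 the 9 and 13 of these cells with at least 3 red blood cell markers had 1271 and 1422 member CPM (36 and 109 UMIs), against 1117 and 2061 in the whole class. The 14 and 5 cells of the class with at least 3 macrophage markers had 610 and 573 CPM (156 and 50 UMIs). In Day 2 replicate A the class was thus not above the red blood cells but was above the macrophages, and in replicate B it was above both. Whether these few cells made histone mRNA of their own was not tested, so they set no level of free RNA. A fall in the class with neither UMI is not shown to be a fall of expression in its cells. The part of free RNA was not tested. Between Day 2 and Day 7, 49 fell and 5 rose (median -1.78; 32.2% and 32.8% of all genes), and between Day 7 and Day 10, 29 fell, 6 rose and 26 were not called (median -0.90; 23.5% and 24.5%). Over the whole course 49 fell and 8 rose (median -2.92; 36.1% and 36.9%). The 8 were Hist2h3c2 (3.75), Hist2h3c1 (3.02), Hist1h2bc (2.28 ± 0.06), Hist2h4 (1.80), Hist1h2ac (0.68), Hist1h1c (0.46), Hist1h4i (0.41) and Hist3h2a (0.37). On library totals without TMM factors 4 rose. Hist1h2bc rose 2.28 here and 0.64 in cells with both UMIs, and the test of the class difference given above covers that gap.

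The same order was seen cell by cell. Cells of at least 5000 UMIs were thinned to 5000 UMIs each, and the mean number of member UMIs per cell was taken at each number of Top2a and Mki67 UMIs. At Day 2 it rose from 7.09 and 8.63 in cells with 0 to 69.9 and 67.9 in cells with 4 or more. At Day 7 it rose from 2.74 and 2.75 to 40.4 and 36.1, and on Day 10 from 1.87 and 1.94 to 7.39 and 6.44. In every library each further step up to 4 or more had a higher mean. A Day 10 cell with 4 or more UMIs of the pair thus held on average about as many member UMIs as a Day 2 cell with none after thinning. A cell with 0 after thinning can still hold UMIs of the pair in its full counts.

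The S-phase genes were counted in the same cells. In the cells with 4 or more Top2a and Mki67 UMIs, the 21 S-phase genes had means of 8.38 and 7.87 UMIs per cell on Day 2, 7.61 and 6.74 on Day 7, and 7.60 and 7.47 on Day 10. Across cells, Pearson correlations of the pair's UMIs with the members' were 0.62 and 0.58 on Day 2 (8626 and 7143 cells), 0.57 and 0.57 on Day 7 (8167 and 8103) and 0.37 and 0.37 on Day 10 (8440 and 7440). By rank (Spearman) they were 0.60 and 0.64 on Day 2, 0.36 and 0.35 on Day 7, and 0.23 and 0.22 on Day 10. By rank the relation was thus already lower on Day 7. All points of one correlation share a library and a depth of 5000 UMIs.

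**Figure D3:**
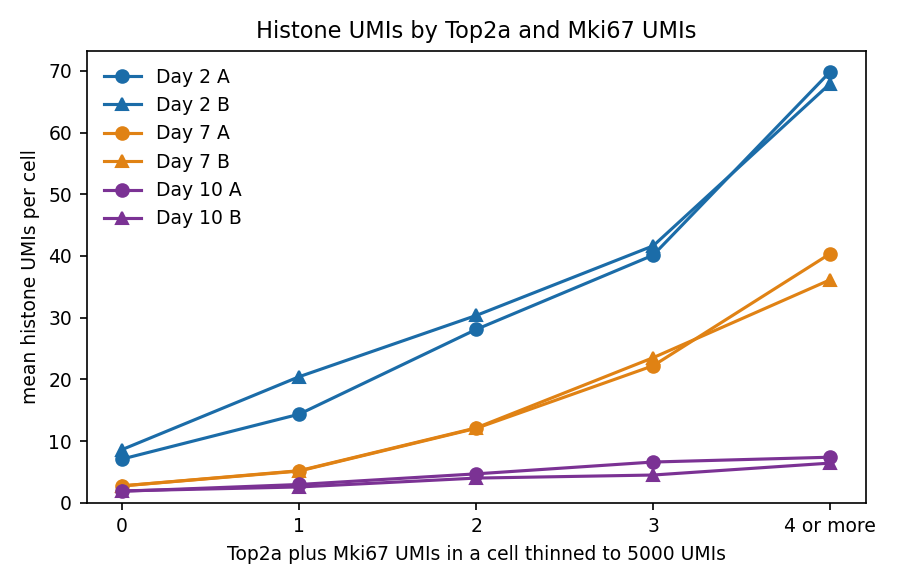
Mean member UMIs per cell, in cells thinned to 5000 UMIs, against the UMIs of Top2a plus Mki67 in the cell (0, 1, 2, 3, and 4 or more), one line per library. All 6 lines climb, from 7.09 and 8.63 to 69.9 and 67.9 on Day 2, and the Day 10 lines stay lowest, reaching 7.39 and 6.44.

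Cells were then matched on both scales. Taking only cells with 4 to 10 UMIs of Top2a and Mki67 and 6 to 12 UMIs of the S-phase genes left 571 and 664 cells on Day 2, 180 and 159 on Day 7 and 149 and 170 on Day 10. Their means of the S-phase genes were 8.36 to 8.65 UMIs and of the pair 6.03 to 6.53 in every library. The members' mean was 73.2 and 64.9 UMIs per cell on Day 2, 49.7 and 40.9 on Day 7, and 9 and 7.74 on Day 10. The medians were 69 and 57, then 48 and 38, then 8 and 6. Over sums of these cells, 47 members passed the filter on low counts. Of these, 23 fell and 0 rose between Day 2 and Day 7 (median -0.59; 14.7% and 18.1% of all genes), and 33 fell and 0 rose between Day 7 and Day 10 (median -2.39; 1.84% and 1.02%). Between Day 2 and Day 10, 42 fell and 1 rose (median -2.97, against 18.1% and 20.3% of all genes). Hist2h3c1, Hist2h3c2 and Hist2h4, which rose in whole cultures, did not pass the filter here. Hist2h2ab, Hist3h2ba and Hist1h2ai had 0 CPM in both Day 10 libraries and passed it through earlier days, so they could only fall. The counts that fell and rose are thus partly set by the filter. At an unadjusted p under 0.05 by edgeR, 26 fell and 0 rose in the first step (19.7% and 22.4% of all genes) and 38 and 0 in the second (7.63% and 6.99%). Read by replicate letter, the members' mean dropped by more UMIs per cell in the second step than in the first. The letters do not pair the libraries, so this order of differences in UMIs rests on how they are lined up. The median log2 changes of -0.59 and -2.39 do not use the letters. Hist1h2ap had 4262 and 4433 TMM-scaled CPM on Day 2, 4691 and 3711 on Day 7, and 451 and 66.3 on Day 10 in them. Hist1h4h had 268 and 274, then 141 and 125, then 8.25 and 2.41.

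S-phase genes and the pair mark different stretches of the cell cycle, and together they gave 4 classes. S high meant an S-phase sum at or above the 75th percentile of the library, which was 9 UMIs on Day 2 and 3 on Day 7 and Day 10, and the pair was high at 2 or more UMIs and low at 0 UMIs in the thinned cell. Cells with exactly 1 UMI of the pair, 607 to 972 per library, were left out. The higher limit on Day 2 put cells in S low that would be S high on the later days. The classes are thus not alike between days. With both low, the members had 1158 and 1361 CPM on Day 2, 462 and 452 on Day 7, and 367 and 385 on Day 10. With only the S-phase genes high they had 2560 and 2366, then 666 and 761, then 378 and 329. With only the pair high they had 7222 and 8160, then 2059 and 2386, then 515 and 539. With both high they had 16138 and 18625, then 8254 and 7551, then 1763 and 1332. The order of the last 3 classes was thus the same in each library, while on Day 10 the first 2 classes stood in opposite order in the replicates.

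With the library as a block, 46 of 61 members were higher where both were high than where only the pair was high (median 1.02; 13.2% of all genes), and 1, Hist3h2a, was lower (-0.33 ± 0.10; 10.7%). Without Day 2 replicate A none was lower. Hist1h1b (2.33 ± 0.28), Hist1h1a (2.20 ± 0.22) and Hist1h2ap (1.89 ± 0.18) differed most. Where only the pair was high, 55 of 61 were higher than where only the S-phase genes were high (median 1.56; 14.5%), with Hist1h2af at 2.96 ± 0.23 and Hist1h3b at 2.52 ± 0.27. By edgeR 0 were lower (17.6% of all genes), and likewise 0 at an unadjusted p under 0.05 (23% of all genes). In the same comparison Slbp was lower (-0.96 ± 0.09).

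Against cells with both low, 27 of 61 were higher and 3 lower where only the S-phase genes were high (median 0.47; 10.5% and 9.77%), and 53 were higher and 1 lower where only the pair was high (median 2.06; 19.3% and 25.8%). Hist1h2af (2.62 ± 0.31) and Hist1h1b (2.47 ± 0.28) led the first. The 3 lower genes were Hist1h2bc (-0.76 ± 0.24), Hist3h2ba (-0.67 ± 0.17) and Hist3h2a (-0.52 ± 0.09). At Day 7 and Day 10, 27.7% to 29.1% of cells lay within 1 UMI of the S-phase limit, so these classes are ranges of a count and not cell types.

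**Figure D4:**
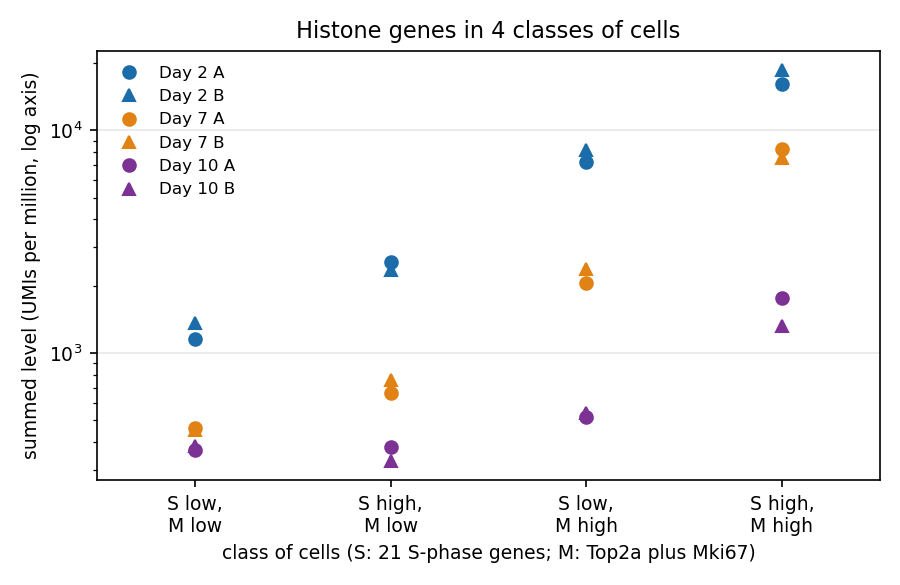
Summed member level in CPM, on a log axis, in 4 classes of cells set by S-phase genes and by Top2a plus Mki67, one point per library. The class high on both scales is the top one in every library (16138 and 18625 on Day 2, 1763 and 1332 on Day 10), and the class high only for the pair comes next.

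Cells with neither UMI were also gated, by counting how many markers of cartilage, tendon, muscle, macrophages or red blood cells each cell carried. The cartilage gate took 52.5% and 31.6% of these cells on Day 2, 97.5% and 95.0% on Day 7, and 91.1% and 90.8% on Day 10. A gate that takes nearly all cells on the later days sorts cells by whether at least 3 of the marker genes were seen in them, and does not show that they were cartilage cells. On Day 10 the members had 364 and 369 CPM in cartilage-gated cells, 288 and 327 in tendon-gated cells, and 376 and 329 in ungated cells. On Day 2 they had 1167 and 1514, 1096 and 1406, and 1091 and 3080 in the same order. With the library as a block, 11 of 57 members were lower in cartilage-gated than in ungated cells and 0 were higher (10.3% and 9.24% of all genes), led by Hist1h3b (-2.08 ± 0.39) and Hist1h2af (-1.59 ± 0.50). By edgeR without adjustment these counts were 23 and 0 at p under 0.05 (16.3% of all genes in each direction). In tendon-gated cells 4 were lower and 0 higher (2.01% and 1.1%), and 21 and 1 without adjustment by edgeR at p under 0.05 (9.49% and 7.2%). The tendon-gated sums were of Day 2 and Day 10 only. Day 7 gave 20 and 28 such cells, under the minimum of 50 for a sum. Of the 23 G2/M genes, 20 were lower in cartilage-gated and 17 in tendon-gated cells than in ungated cells (medians of -1.22 and -1.82), and their part in the members' difference was not tested. The value of 3080, in Day 2 replicate B, came with a median of 1907 UMIs per ungated cell, against 12973 per cartilage-gated cell, and the part of depth in these differences was not tested.

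The members were also grouped by their annotated length after the stop codon. The 15 members annotated with fewer than 10 bases after the stop (0 to 2) gave 13 tested genes, of which 13 fell between Day 2 and Day 10 (median -4.02). The 30 with 37 to 230 bases gave 28 tested genes, of which 27 fell (median -3.89). The 22 with 376 to 4931 bases gave 21 tested genes, of which 14 fell and 5 rose (median -1.61), and these 5 are all of the members that rose. Of all genes tested, 38.2% fell and 39% rose over the same days. The limits of 10 and 300 bases were set after the values were seen. The lengths are those of the annotation. A model with 0 to 2 bases after the stop may be incomplete, and the true ends were not measured.

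The relation was a loose one. Spearman's rho between the length and the log2 change was 0.47 across the 62 tested members, 0.30 in cells with both UMIs and 0.52 across 61 members in cells with neither, and genes are no independent replicates. Hist1h1d (4931 bases, -3.41), Hist1h1e (1209, -4.23) and Hist1h4d (822, -4.26) have long annotated ends and fell, by values near the medians of the groups with shorter annotated ends. Of the 16 members with a poly(A) signal in the last 40 bases, 12 fell and 3 rose (median -2.77; 38.2% and 39% of all genes). The difference between cells with both UMIs and with neither ran the other way. Its medians were 3.26, 2.56 and 1.41 in the groups of short, middle and long annotated ends, with a rho of -0.56.

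**Figure D5:**
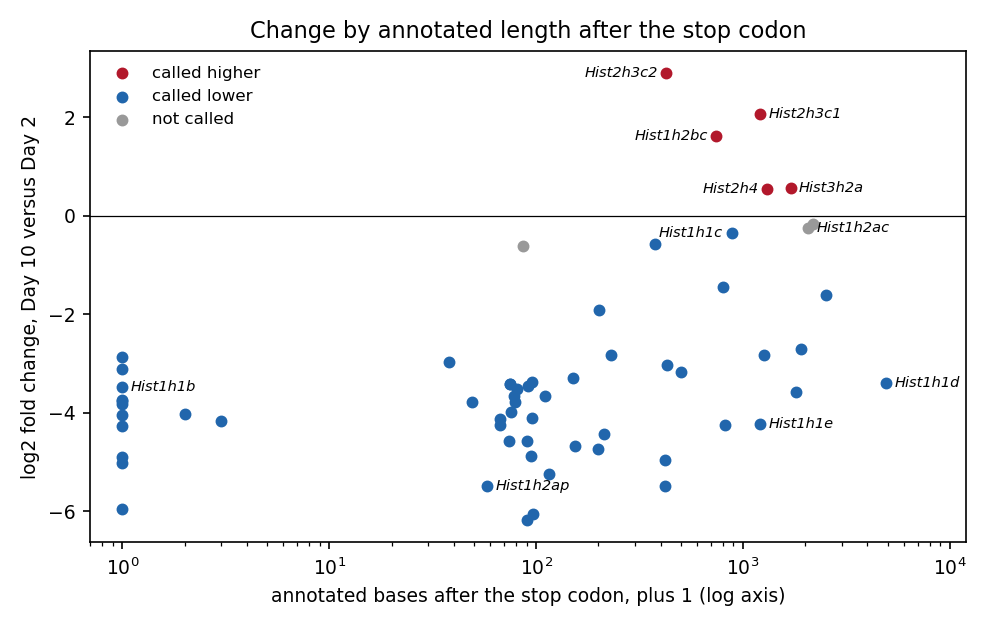
Log2 change of each tested member between Day 2 and Day 10 against its annotated bases after the stop codon. Colours mark members called higher, called lower or not called. The 5 members above 0 all lie beyond 300 bases, where the values spread from -5.49 to 2.90, while members under 300 bases lie between -6.18 and -0.62.

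Many members are arranged head to head and share one stretch of DNA between their starts. There were 13 such pairs within 1000 bases, 12 of an H2A and an H2B gene and 1 of an H2B and an H3 gene, with 175 to 659 bases between them. In 11 pairs both genes were tested. The ratio of the higher to the lower mean level ran from 1.96 to 59.5 with a median of 5.63, and the H2A gene was the higher in 6 of 10 pairs. Counts of 3′ ends decide these ratios, so they do not compare the output of the promoters.

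The stretches of the pair with the fewest bases between and of the pair that holds Hist1h2bc are printed because the genes on their flanks had different courses. Hist1h2ae and Hist1h2bg had means of 208 and 3.77 CPM and log2 changes of -4.74 and -1.92 between Day 2 and Day 10. Hist1h2bc and Hist1h2ac had 83.9 and 4.94, and changes of 1.61 and -0.25, the latter not called (adjusted p = 0.126). Capitals mark 3 motifs on either strand, the CCAAT box, the TATAAA form of the TATA box, and the octamer motif ATTTGCAT. The letters are from RefSeq for GRCm38.p6, at chr13:23571221-23571395 and chr13:23683949-23684198, both on the minus strand.
Hist1h2ae and Hist1h2bg: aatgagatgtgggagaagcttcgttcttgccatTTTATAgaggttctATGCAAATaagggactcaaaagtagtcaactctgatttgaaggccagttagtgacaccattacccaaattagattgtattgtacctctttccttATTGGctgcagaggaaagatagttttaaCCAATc
Hist1h2ac and Hist1h2bc: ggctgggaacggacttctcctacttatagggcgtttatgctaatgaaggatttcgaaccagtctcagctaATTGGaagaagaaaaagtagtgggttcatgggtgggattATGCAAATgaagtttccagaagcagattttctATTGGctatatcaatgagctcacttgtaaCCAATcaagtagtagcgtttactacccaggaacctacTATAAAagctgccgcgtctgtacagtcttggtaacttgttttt

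RefSeq promoters, from 250 bases before to 50 after the start, were matched for 62 members. CCAAT was present in 53 of 62 (85.5%) and in 37.4% of 32851 promoters, TATAAA in 35 (56.5%) and 13.6%, and ATTTGCAT in 13 (20.97%) and 1.74%, each on either strand. All H1, H2A, H2B and H3 promoters held CCAAT and 3 of 12 of H4 did. The octamer was found in 7 of 18 H2A and 6 of 16 H2B promoters and in none of the H1, H3 and H4 promoters. Windows of head-to-head partners can overlap, so the same motif can count for both genes. Only the first promoter of each member was counted, and a further promoter of Hist1h2be, not counted, held the octamer. Hist1h2bc and Hist2h4 were among the members without a matched promoter. A match of letters describes the window only.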

How the data were processed

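Single cells of 6 DID libraries (Day 2, Day 7 and Day 10, replicates A and B) were measured with 10x 3′ v3.1 chemistry. The authors deposited UMI counts per gene and barcode, made with Cell Ranger 6.1.2 and STAR on GRCm38, before their Seurat 4.1.0 filters. Those filters were applied here as the methods give them per library: 200 to 7500 genes, at least 800 or 1000 UMIs, at most 25%, 30% or 40% mitochondrial and 35% or 40% ribosomal UMIs. Doublets were not removed. Clusters were not used.

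UMIs of kept cells were summed per library, or per library and class of cells. Genes passing filterByExpr (18987 for whole cultures) were fitted with edgeR 4.0.16 (R 4.3.3): TMM factors (0.927 to 1.14), glmQLFit and glmQLFTest. Benjamini-Hochberg adjustment ran over all genes tested, with a threshold of 0.05. Errors of fold changes are SE. One fit held all days, so every gene has 1 spread for the 3 days. Comparisons of classes had the library as a block. Replicates were 2 cultures per day, so p-values measure the spread between these cultures. Depth was 178022112 to 260245417 UMIs per library. For levels by cell, cells of at least 5000 UMIs were thinned to 5000.

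The fits were tested on simulated counts with known changes. Positions and transcript ends came from GENCODE vM21 (GRCm38) and promoters from RefSeq (GRCm38.p6), both through Python 3.11.15. Named members were the 16 with the highest mean level, up to 6 called per direction and comparison with the largest change, without overlap of samples and with a mean of at least 0.5 UMIs per 1000000 in a group, and those whose ends are printed; other lists gave up to 4 genes each. Hist2h3c2, Hist2h4 and other members beyond this rule, and the pairs whose promoters are printed, were chosen after their values were seen. Members and lists were chosen with earlier results of these data known. The cells matched on S-phase genes, the grouping by length of end, and the alternatives for the changes of the class difference were chosen after the data were seen. Alternatives were DESeq2 1.42.0, its size factors in edgeR, library totals, no filter on low counts, all barcodes, cells of at least 3000 UMIs, other class limits, thinning, blocks and leaving out each library.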

Additional observations from a re-analysis of the deposited data

Results flagged for a closer look

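The difference between cells with both Top2a and Mki67 UMIs and cells with neither changed with the day in several of the members named above, by edgeR's test of the change itself with adjustment over 17609 genes. Values are changes of the log2 difference.

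The H1 genes Hist1h1b, Hist1h1a, Hist1h1d and Hist1h1e moved up between Day 2 and Day 7, by 2.45, 2.02, 1.47 and 0.89. Of these, 3 were also larger at Day 10 than at Day 2, Hist1h1b by 2.59, Hist1h1a by 1.43 and Hist1h1e by 0.93, while Hist1h1d went back by -1.49 between Day 7 and Day 10. Without 1 of the Day 2 libraries the values of Hist1h1b ran from 1.76 to 3.13 for the change to Day 7 and from 1.86 to 3.24 for that to Day 10. Hist1h1c, another H1 gene, changed in the other direction, by -0.22 between Day 2 and Day 7, -1.18 between Day 7 and Day 10 and -1.40 between Day 2 and Day 10. The first step of Hist1h1c was not called in thinned cells (-0.11, adjusted p = 0.417) or without Day 2 replicate A, Day 7 replicate A or Day 7 replicate B (adjusted p of 0.0662 to 0.115).

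Among core histone genes, Hist1h2ak moved up by 1.53, Hist1h2ap by 1.35 and Hist1h3e by 0.99 between Day 2 and Day 7, and Hist1h2ap by 1.05 between Day 2 and Day 10. The first change of Hist1h2ap was not called without either Day 7 library (adjusted p of 0.0519 and 0.0929), and the second without any 1 of the Day 7 and Day 10 libraries (0.0776 to 0.5004). That of Hist1h2ak was not called without Day 7 replicate B (0.0728).

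The difference of Hist1h2bc moved downward, from above 0 on Day 2 to below 0 on the later days, by -0.98, -0.55 and -1.53 (Day 2 to Day 7, Day 7 to Day 10, Day 2 to Day 10). Hist2h2aa1, an H2A gene, had -1.03 between Day 2 and Day 7 and -1.22 between Day 2 and Day 10, the latter not called without Day 10 replicate A (adjusted p = 0.0615). Hist1h4h had -1.98 between Day 7 and Day 10 and -1.86 between Day 2 and Day 10. Hist2h2bb, an H2B gene, had -1.36 between Day 2 and Day 10.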

How the results depend on the processing

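DESeq2, its size factors in edgeR and no filter on low counts were run on whole cultures and on cells with both UMIs against neither (8 counts each), and all barcodes and cells of at least 3000 UMIs on whole cultures (6 counts each), and these counts stayed within 1.5 times. Without the library block, 22 members were higher in cells with both UMIs and 0 lower (57 and 1 with it), since the days then enter the spread. Library totals gave 2 members that rose in cells with both UMIs between Day 7 and Day 10 (1 with TMM) and 4 in cells with neither between Day 2 and Day 10 (8 with TMM). Thinning gave 28 members that moved up and 4 that moved down in class difference between Day 2 and Day 7, and 1, 0 and 1 that rose in cells with both UMIs (first step, second step, whole course). The matched cells, far fewer, gave 0, 0 and 1 that rose and 23 and 33 that fell in the first and second step. Of the members that rose in whole cultures, Hist2h3c1, Hist2h3c2 and Hist2h4 did not pass the filter in them. The sign of Hist1h2bc turned in them between Day 2 and Day 7 (-0.0095, adjusted p = 0.977 by edgeR). It also turned between Day 2 and Day 10 (-0.29, adjusted p = 0.311 by edgeR). Leaving out 1 library moved the changes of the class difference most: between Day 2 and Day 7, 9 to 33 moved up and 4 to 10 moved down; between Day 7 and Day 10, 8 to 33 moved down; between Day 2 and Day 10, 4 (without Day 10 replicate A) to 22 (without Day 2 replicate A) moved up and 13 to 27 (without Day 2 replicate B) moved down. It also gave 1 to 2 that rose in cells with both UMIs and 18 (without Day 7 or Day 10 replicate A) to 38 that fell in cells with neither between Day 7 and Day 10, and 0 to 1 lower where S-phase genes and the pair were high than where the pair alone was. The cause was not tested, and the share of all genes called is not given for fits with 1 library left out. The replicate letters did not pair the libraries: deviations of same-lettered libraries correlated at -0.032, -0.092 and -0.23 over 8681 genes. With the letter as a replicate block, all 18 counts stayed within 1.5 times, with 54 that fell and 5 that rose between Day 2 and Day 10 as without it, and 30 and 7 in cells with neither between Day 7 and Day 10. Members with few UMIs, or with ends shared with another gene, limit the precision of single values.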

Other observations

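Several H2A genes differed between the replicates of Day 10. Of 61 members with at least 10 UMIs in every library, 7 had a level in Day 10 replicate A over 1.5 times that in replicate B, and 6 of these were among the 15 H2A genes. Of all 16540 genes with as many UMIs, 1.23% were over this limit and 2.49% under its inverse. They were Hist1h2ap (6.22), Hist1h2ai (2.56), Hist1h2ak (2.24), Hist2h2aa1 (2.11), Hist1h2ad (1.78) and Hist1h2ae (1.61), with Hist1h4n, an H4 gene, as the seventh (1.65). A further 4 had a ratio under the inverse of that limit, among them Hist1h2an, also an H2A gene (0.554), and Hist1h3g, Hist1h3h and Hist1h1t (0.560 to 0.622), and the median ratio over all 61 was 0.957. At Day 7 only Hist1h1t (1.83) was over this limit and 0 were under its inverse, with a median of 1.02. Over all genes these were 1.41% and 1.66%, with a median of 1.01. At Day 2 there were 0 over it and 6 under its inverse, with a median of 0.801. Over all genes these were 1.58% and 3.05%, with a median of 1.002. The limit was set after the values were seen, and these ratios are given without a test.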
